A study of Homo sapiens with 6 samples.

Results

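The transcripts described here are those of 10 cell cycle genes that have been studied less than the cyclins, kinases and motors of mitosis: C11orf82, CDCA2, CDCA3, PBK, DEPDC1, DEPDC1B, FAM64A, FAM83D, TROAP and GTSE1. All 10 were found by symbol among the 23228 gene names of the table. C11orf82 is the older symbol of DDIAS and FAM64A that of PIMREG. In the lists of the study 9 of the 10 are G2/M genes, while C11orf82 is listed with the G1/S genes. The genes were selected on their log2 change between the groups in these same 6 libraries, where they fell strongly, so their falls are given as a description, without a test.

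RNA was sequenced from SaOS-2 cells, an osteosarcoma line without functional RB, that carried a vector with p21 under a tetracycline-inducible promoter. The p21 OFF group holds 3 libraries of untreated cells and the p21 ON group 3 libraries of cells given 1 μg/ml doxycycline for 24 h. Both groups carry the vector, and whether the line is a single clone is not given in the sources used here. Cells without the vector that received doxycycline were not analysed here, so the drug and p21 cannot be told apart.

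Genes of the G2/M wave are transcribed from late S phase onwards and reach their highest level as cells enter mitosis. In quiescent or arrested cells the DREAM complex, made of p130 or p107 with E2F4 and the MuvB core, sits on their promoters and holds them low, and in cycling cells the MuvB core moves to B-MYB and FOXM1 and activates them. MuvB binds a short promoter element named CHR (cell cycle genes homology region). p21 inhibits the cyclin-dependent kinases whose activity takes DREAM apart.

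CDKN1A, the gene of p21, had 1187 to 1355 normalized counts in the p21 OFF libraries and 40470 to 46739 in the p21 ON libraries. The libraries held 12795490 to 21975045 reads on genes. Osteoblast markers were abundant as a sum in both groups, with 71371 to 74079 normalized counts in p21 OFF and 72412 to 75635 in p21 ON libraries over 6 genes, of which ALPL was highest. IBSP was far lower, with 123 to 139 in p21 OFF and 95.5 to 102 in p21 ON libraries, so its groups did not overlap. The 3 leukocyte markers summed to at most 16.3 normalized counts in any library and the 3 epithelial markers to 317 to 398, nearly all of it EPCAM. The 2 endothelial markers summed to 62.8 to 68.0 in p21 OFF and 73.1 to 104.5 in p21 ON libraries, mostly VWF, so the groups did not overlap, and the part of this in the results was not tested.

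Promoters are shown for the genes whose sequence was given, to let matches to the letters of the CHR and of the CCAAT box be seen where they lie. Binding of any protein to these matches was not measured here. RefSeq promoters (GRCh38.p14) were matched for 5 of the 10 genes, C11orf82, CDCA3, DEPDC1, DEPDC1B and GTSE1. Those of CDCA2, PBK, FAM64A, FAM83D and TROAP are not shown. Each line gives 220 bases, from 200 before the start of the gene to the first 20 of the transcript, 5′ to 3′ on the strand of the gene. Capitals mark every CHR on either strand (letters TTTGAA, with the rarer form TTCGAA also searched) and every CCAAT box. A CHR on the opposite strand reads TTCAAA here, and a CCAAT box there reads ATTGG.
C11orf82: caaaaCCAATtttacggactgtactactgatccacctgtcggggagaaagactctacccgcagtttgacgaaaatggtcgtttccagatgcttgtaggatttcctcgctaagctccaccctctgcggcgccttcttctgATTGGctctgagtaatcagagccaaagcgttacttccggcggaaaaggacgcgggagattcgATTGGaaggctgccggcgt
CDCA3: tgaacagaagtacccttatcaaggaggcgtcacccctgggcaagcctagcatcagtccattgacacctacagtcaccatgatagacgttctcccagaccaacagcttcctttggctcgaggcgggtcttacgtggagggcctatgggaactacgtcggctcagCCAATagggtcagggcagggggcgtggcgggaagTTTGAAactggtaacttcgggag
DEPDC1: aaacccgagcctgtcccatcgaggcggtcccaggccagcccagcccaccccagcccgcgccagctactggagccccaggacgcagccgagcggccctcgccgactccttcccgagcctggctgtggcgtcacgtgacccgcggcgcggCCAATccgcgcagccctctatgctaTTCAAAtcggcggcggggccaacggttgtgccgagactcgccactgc
DEPDC1B: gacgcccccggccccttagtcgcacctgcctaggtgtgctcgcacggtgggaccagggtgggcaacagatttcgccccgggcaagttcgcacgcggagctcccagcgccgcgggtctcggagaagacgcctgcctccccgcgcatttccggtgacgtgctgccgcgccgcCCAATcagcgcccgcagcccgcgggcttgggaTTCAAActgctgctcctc
GTSE1: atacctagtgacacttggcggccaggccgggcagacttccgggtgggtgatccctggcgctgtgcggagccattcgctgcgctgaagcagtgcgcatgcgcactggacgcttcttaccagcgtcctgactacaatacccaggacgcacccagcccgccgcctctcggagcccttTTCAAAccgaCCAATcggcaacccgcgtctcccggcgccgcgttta
The windows are chr11:82901536-82901755 (plus strand) for C11orf82, chr12:6851267-6851486 (minus strand) for CDCA3, chr1:68497063-68497282 (minus strand) for DEPDC1, chr5:60700147-60700366 (minus strand) for DEPDC1B and chr22:46296670-46296889 (plus strand) for GTSE1.

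In the full window of 300 bases, from 250 before the start to 50 after it, a CHR was present in 4 of the 5 promoters and a CCAAT box in all 5. Over 27305 promoters of the same length the shares were 16.6% and 35.7%, and 6.58% held both. A CHR stood close to the start in each of the 4. Its first base was 27 bases before the start in DEPDC1, 26 in GTSE1 and 3 in CDCA3, and in DEPDC1B it was base 3 of the transcript. A CCAAT box stood upstream of the CHR in CDCA3, DEPDC1 and DEPDC1B and downstream of it in GTSE1. C11orf82 held 3 CCAAT boxes and no CHR. An E2F site (TTTCCCGC, TTTCGCGC, TTTGCCGC or TTTGGCGC on either strand) was in none of the 5 and in 3.33% of all promoters. Among 77 other genes of the high-stringency G2/M list of the study, 62.3% of promoters held a CHR, 68.8% a CCAAT box and 3.90% an E2F site.

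Each of the 10 genes had lower normalized counts in every p21 ON library than in any p21 OFF library, and the levels left were 31.2% to 43.3% of those without induction. Over all 13255 genes tested, 21.3% had all p21 ON libraries under all p21 OFF libraries, and 12.7% were called lower by limma at an adjusted p-value under 0.05. Since the 10 genes were selected on this comparison, nothing is read from these shares about them. The median log2 fold change was -1.42 over the 10 genes and 0.0056 over all genes tested. The 10 genes together had 8920 to 9353 normalized counts in the p21 OFF libraries and 3474 to 3591 in the p21 ON libraries. In RNA from whole cultures, fewer cells in G2 and mitosis and less of the RNA per cell cannot be told apart. Log2 changes are p21 ON minus p21 OFF, as differences of the group means of log2(normalized count + 1), with their standard errors (SE).

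**Figure D1:**
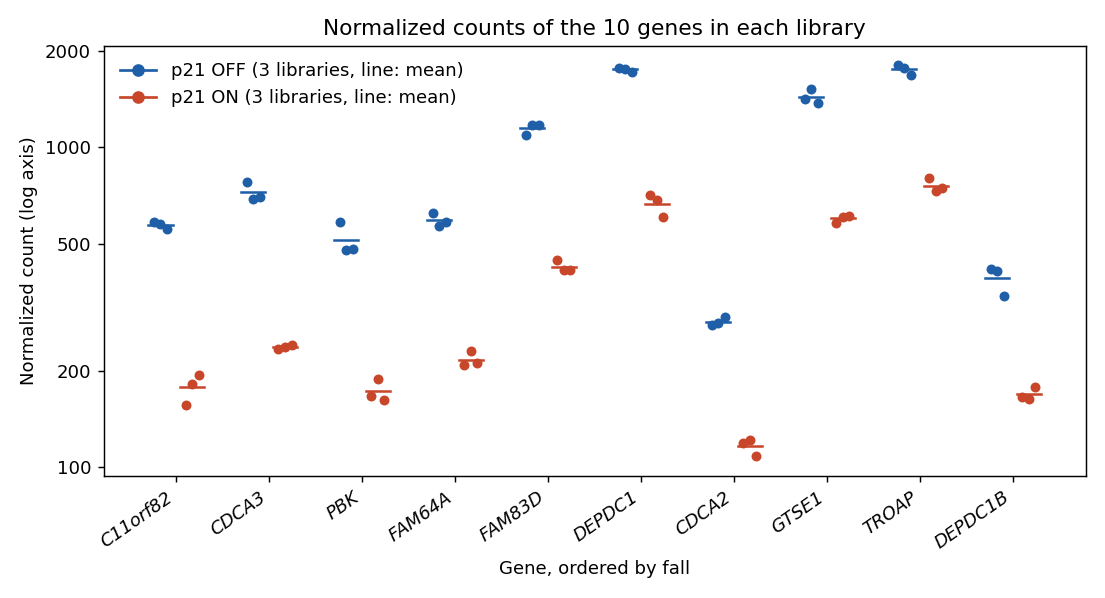
Normalized counts (log axis) of the 10 genes, ordered by the size of the fall, with 1 point per library and a line at the mean of each group of 3. For every gene the red p21 ON points lie below the blue p21 OFF points, with a ratio of lowest p21 OFF to highest p21 ON library from 1.93 for DEPDC1B to 2.86 for C11orf82.

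A kinase and a phosphatase targeting subunit are among the 10. PBK encodes a serine/threonine kinase that is active in mitosis and is at 27667141 to 27695599 on the minus strand of chromosome 8 (GRCh37, the build of all gene positions here). Its 3 p21 OFF libraries had 583, 477 and 479.7 normalized counts and its p21 ON libraries 168, 189 and 162. The first p21 OFF library stood above the other 2, and this gene had the widest relative spread of the 10 without induction (coefficient of variation 11.7%). Over all genes tested, that library also differed more from the other 2 p21 OFF libraries than they did from each other. Given the total reads, the mean chi-square per gene was 8.48 and 9.28 for it, against 3.06 between the other 2. Whether this bears on the spread of PBK was not tested. PBK went from 513 ± 60.2 to 173 ± 14.0 (n = 3 per group, SD), a log2 change of -1.56 (SE 0.10). CDCA2, on chromosome 8 from 25316715 to 25365427 on the plus strand, encodes Repo-Man, which brings protein phosphatase 1 to chromosomes as mitosis ends. It was the gene of the 10 with the fewest reads, 100 to 399 per library. Its normalized counts were 278, 282 and 295 without induction and 119, 122 and 108 with p21. The mean fell from 285 ± 9.03 to 116 ± 7.08 (n = 3 per group, SD), a log2 change of -1.29 (SE 0.10).

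3 of the genes encode proteins of the spindle. FAM83D, on chromosome 20 from 37554955 to 37581749 on the plus strand, encodes a spindle protein that brings casein kinase 1 alpha to the mitotic spindle. It had 1096, 1177 and 1173 normalized counts in p21 OFF and 446, 413 and 412 in p21 ON libraries, so each group was tight. The means were 1149 ± 45.5 and 424 ± 19.1 (n = 3 per group, SD) and the log2 fold change was -1.44 (SE 0.07). TROAP, on chromosome 12 from 49717019 to 49725514 on the plus strand, encodes tastin, first described in cell adhesion by trophinin and also found at the spindle. Its p21 OFF libraries had 1803, 1775 and 1682 normalized counts and its p21 ON libraries 802, 729.9 and 746. TROAP kept the second largest share of its level, 43.3%, going from 1754 ± 63.3 to 759 ± 37.9 (n = 3 per group, SD), a log2 change of -1.21 (SE 0.07). GTSE1, on chromosome 22 from 46692767 to 46726707 on the plus strand, encodes a microtubule-binding protein that restrains the depolymerizing kinesin MCAK. It had 1418, 1518 and 1381 normalized counts without induction and 579.7, 608 and 611 with p21. With induction its 3 libraries were close together, and the mean went from 1439 ± 70.9 to 599.6 ± 17.2 (n = 3 per group, SD), a log2 change of -1.26 (SE 0.07).

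CDCA3 and FAM64A encode proteins that the anaphase-promoting complex marks for destruction. CDCA3, also named Tome-1, has been linked to the loss of the CDK1 inhibitor WEE1 at mitotic entry, and lies on chromosome 12 from 6953957 to 6960456 on the minus strand. It had 779, 689.7 and 701 normalized counts in p21 OFF and 235, 238 and 241 in p21 ON libraries. The p21 ON libraries differed by less than the number of reads alone would give, with a coefficient of variation of 1.31% where counting error is 6.82%. CDCA3 fell from 723 ± 48.3 to 238 ± 3.13 (n = 3 per group, SD), a log2 change of -1.60 (SE 0.08). Of its annotated exons 11.3% overlap GNB3 on the opposite strand. The libraries were stranded, and whether strand was used in counting is not given in the sources used here. GNB3 had 129 ± 18.2 and 138 ± 5.74 normalized counts (n = 3 per group, SD). FAM64A, on chromosome 17 from 6347761 to 6354789 on the plus strand, encodes a nuclear protein of dividing cells that binds the clathrin assembly protein CALM. Its p21 OFF libraries had 623, 569 and 585 normalized counts and its p21 ON libraries 208, 232 and 212. The groups were 593 ± 27.4 and 217 ± 12.5 (n = 3 per group, SD), a log2 change of -1.44 (SE 0.08), close to that of FAM83D. Of its annotated exons 7.4% overlap PITPNM3 on the opposite strand.

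DEPDC1 and DEPDC1B are paralogs that share a DEP domain and a RhoGAP-like domain. DEPDC1, on chromosome 1 from 68939835 to 68962904 on the minus strand, had 1773, 1761 and 1722 normalized counts in p21 OFF and 710.1, 684 and 608 in p21 ON libraries. It was the steadiest of the 10 without induction, with a coefficient of variation of 1.52%, and went from 1752 ± 26.6 to 667 ± 52.9 (n = 3 per group, SD), a log2 change of -1.39 (SE 0.07). DEPDC1B, which is known to ease the detachment of cells before mitosis by way of RhoA, lies on chromosome 5 from 59892739 to 59996017 on the minus strand. It had 417, 411 and 343 normalized counts without induction and 166, 163 and 178 with p21. The third p21 OFF library was lower than the other two. DEPDC1B had the smallest fall of the 10, from 390.3 ± 41.1 to 169 ± 7.57 (n = 3 per group, SD), a log2 change of -1.20 (SE 0.10).

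C11orf82 encodes DDIAS, also named noxin, a protein known for protecting cells from apoptosis after DNA damage. It lies on chromosome 11 from 82611017 to 82669319 on the plus strand. Its p21 OFF libraries had 583, 576 and 557 normalized counts and its p21 ON libraries 157, 183 and 195. The p21 ON libraries spread more than those without induction, with coefficients of variation of 10.8% and 2.29%, and counting error alone is 7.92% and 3.99%. C11orf82 had the deepest fall of the 10 and the second deepest of all 13255 genes tested, from 572 ± 13.1 to 178 ± 19.2 (n = 3 per group, SD), a log2 change of -1.68 (SE 0.09). Its annotated exons overlap those of PRCP on the opposite strand over 5.28% of their length and a ribosomal protein pseudogene on the same strand over 14.9%.

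The place of each gene in the lists of the study differed for C11orf82. CDCA2, CDCA3, PBK, DEPDC1, DEPDC1B, FAM64A, FAM83D, TROAP and GTSE1 are in the high-stringency G2/M list, and all of these but TROAP are also in the low-stringency G2/M list. C11orf82 is in neither and is listed among the low-stringency G1/S genes, whose peak comes earlier in the cell cycle. Among the 101 tested genes of the high-stringency G2/M list, CDCA3 and PBK ranked 2 and 3 from the deepest fall, FAM64A 13, FAM83D 15, DEPDC1 18, CDCA2 33, GTSE1 38, TROAP 43 and DEPDC1B 44. The other 92 genes had a median log2 change of -1.05, and 84 of them were called lower. Among low-stringency G1/S genes C11orf82 had the deepest fall of 537 tested genes, where the other 536 had a median of 0.0035 and 116 were called lower. The copy of each list used here is 1 gene shorter than the count in the paper, and the ranks are a description of genes chosen for their falls.

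**Figure D2:**
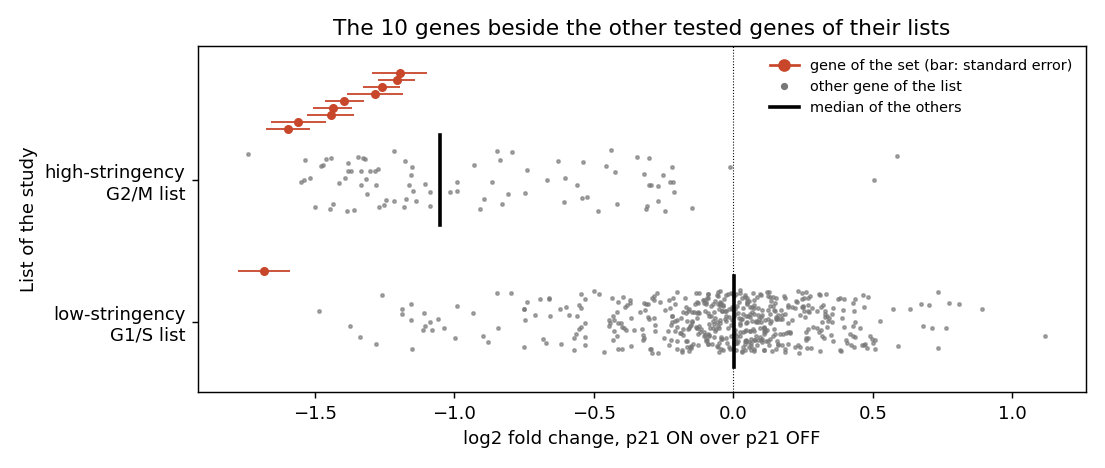
Log2 fold change (p21 ON over p21 OFF) of the 10 genes (red, with standard errors) above the other tested genes of their lists (grey, spread vertically for legibility), with a black line at the median of the others. The 9 genes of the high-stringency G2/M list lie between -1.60 and -1.20, left of the median of -1.05, and C11orf82 at -1.68 lies left of every other low-stringency G1/S gene.

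Per kilobase of the canonical transcript, the levels without induction ran from 81.7 normalized counts per kb for CDCA2 to 687 for TROAP. The means of 9 of the 10 genes were above the median of 151 over 12580 genes with a length. C11orf82 and DEPDC1B lay near that median, and the libraries of DEPDC1B, from 137 to 167, lay on both sides of it. CDCA3 followed TROAP with 632 ± 42.2 per kb (SD, n = 3), and the ranges of the libraries of these 2 genes overlapped. FAM83D with 485 ± 19.2 and GTSE1 with 482 ± 23.8 also overlapped, as did DEPDC1 with 331 ± 5.02, FAM64A with 311 ± 14.4 and PBK with 279.5 ± 32.8, each with the next. C11orf82 with 162 ± 3.72 and DEPDC1B with 156 ± 16.4 overlapped (n = 3 per group, SD). The order and the count above the median depend on the transcript taken as the length, most of all for CDCA3. It has 148 per kb over all its annotated exons. With p21 the levels were 33.4 to 298 per kb of the canonical transcript, again lowest in CDCA2 and highest in TROAP.

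The spread between replicates rests on 3 libraries per group, so each coefficient of variation is imprecise and nothing is read from small differences. Without induction the coefficient of variation was above that of counting error in PBK (11.7% against 4.20%), DEPDC1B (10.5% against 4.83%), CDCA3 (6.68% against 3.54%) and GTSE1 (4.92% against 2.52%). It was also above it in FAM64A (4.63% against 3.92%), FAM83D (3.96% against 2.82%) and TROAP (3.61% against 2.28%). With p21 it was above counting error in DEPDC1 (7.93% against 4.07%), C11orf82 (10.8% against 7.92%) and TROAP (4.995% against 3.82%). PBK with p21 was barely above it (8.08% against 8.004%). Without induction it was below counting error in DEPDC1 (1.52% against 2.28%), C11orf82 (2.29% against 3.99%) and CDCA2 (3.17% against 5.67%). With p21 it was below it in CDCA2, CDCA3, DEPDC1B, FAM64A, FAM83D and GTSE1. The median SD of log2(normalized count + 1) over 3 libraries was 0.062 without induction and 0.076 with p21, where the 5793 tested genes in the same range of level had medians of 0.085 and 0.073. The smallest number of reads behind a value was 100, in CDCA2, and the largest 2330, in DEPDC1. When single libraries were left out, the log2 change of C11orf82 stayed between -1.75 and -1.59, that of PBK between -1.62 and -1.47 and that of DEPDC1B between -1.29 and -1.15, and the other genes moved less than these. The genes with the most similar profile over the 6 libraries, by Euclidean distance between their centred log2 values and the median profile of the 10, were CEP55 (distance 0.070), TOP2A (0.073), DLGAP5 (0.082), KIAA1524 (0.10) and NDC80 (0.11) of 13245 genes searched. Among the 10, DEPDC1 was nearest to the median profile (0.0995) and C11orf82 farthest (0.46). The profiles span both groups, so these distances include the difference between groups on which the 10 were selected. CEP55, TOP2A, DLGAP5, KIAA1524 and NDC80 had log2 changes from -1.44 to -1.34. Of all genes tested, 152 (1.15%) were called lower with a fall of 1 or more. Likeness apart from the fall was not tested.

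The binding partners and targets of the 10 proteins were set out as a list of 28 genes, and all 28 were tested. The list was written with earlier results of these data known. At the same limma threshold, 16 were lower, 2 higher and 10 neither, with a median log2 change of -0.25, against 12.7% of all genes lower, 10.5% higher and a median of 0.0056. Of the 28, 12 are themselves in a G2/M list of the study and all 12 were lower (median -1.21). Without the 10 genes, 84 of 92 tested genes of the high-stringency G2/M list and 239 of 410 of the low-stringency list were lower. Of the other 16 partners and targets, 4 were lower and 2 higher (median -0.07).

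Of the 28 partners, 8 fell by 1 or more on the log2 scale, and the partners of GTSE1 were spread widely. KIF2C, the gene of the kinesin MCAK that GTSE1 restrains, went from 3327 ± 87.0 to 1177 ± 50.1 normalized counts (n = 3 per group, SD), a log2 change of -1.50 (SE 0.06, limma adjusted p = 1.97e-11). PLK1, the polo-like kinase that phosphorylates GTSE1, had a log2 change of -1.44 and TACC3, a spindle microtubule regulator that works with clathrin, one of -1.24 (limma adjusted p = 2.07e-11 and 4.11e-11). CKAP5, a microtubule polymerase at the spindle poles, fell by 0.63 (limma adjusted p = 8.39e-07). The clathrin heavy chain gene CLTC had 13563 ± 645 and 13451 ± 486 normalized counts (n = 3 per group, SD), a log2 change of -0.01 (limma adjusted p = 0.911).

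For PBK, the kinase gene CDK1 went from 1282 ± 33.6 to 494 ± 50.5 normalized counts (n = 3 per group, SD), a log2 change of -1.38 (SE 0.08, limma adjusted p = 2.51e-10). CCNB1, cyclin B1, had a log2 change of -1.39 and PRC1, which bundles the microtubules of the central spindle, one of -1.18 (limma adjusted p = 1.00e-10 and 6.97e-11). MAPK14, the p38 kinase, had 1093 ± 11.04 and 1106 ± 12.6 normalized counts (n = 3 per group, SD) and a log2 change of 0.02 (limma adjusted p = 0.866).

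For FAM83D, the hyaluronan-mediated motility receptor HMMR and the chromokinesin KIF22 had log2 changes of -1.28 and -1.14 (limma adjusted p = 1.70e-10 and 2.04e-10). The dynein light chain DYNLL1 fell by 0.50 (adjusted p = 0.000136). CSNK1A1, the kinase that FAM83D brings to the spindle, had 2327 ± 145 and 2142 ± 26.6 normalized counts (n = 3 per group, SD) and a log2 change of -0.12 (limma adjusted p = 0.177).

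For CDCA2, the 3 catalytic subunits of protein phosphatase 1 changed little. PPP1CC, the isoform that Repo-Man binds, fell by 0.35 (SE 0.07, limma adjusted p = 0.00105), PPP1CA had a log2 change of -0.19 (adjusted p = 0.0327) and PPP1CB one of -0.08 (adjusted p = 0.444). For CDCA3, WEE1 fell by 0.31 (adjusted p = 0.00859) and FZR1, the coactivator of the anaphase-promoting complex in G1, by 0.42 (adjusted p = 0.000144). SKP1 and CUL1, subunits of the SCF ubiquitin ligase, had log2 changes of -0.27 (adjusted p = 0.0122) and -0.13 (adjusted p = 0.121). MAPRE1, the microtubule end protein EB1 that GTSE1 binds, had one of -0.22 (adjusted p = 0.0181). Without p21 ON replicate 1, PPP1CA, SKP1 and MAPRE1 were no longer called (adjusted p = 0.196, 0.0573 and 0.105 from limma). PPP1CA also lost its call when p21 OFF replicate 2 (0.116) or replicate 2 of p21 ON (0.0707) was left out, and SKP1 and MAPRE1 lost theirs without p21 ON replicate 3 (0.0766 and 0.0956).

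The partners of the remaining proteins stayed near their level or rose. PTPRF, a receptor phosphatase that DEPDC1B opposes at focal adhesions, rose from 978 ± 98.7 to 1195 ± 27.4 normalized counts (n = 3 per group, SD), a log2 change of 0.29 (limma adjusted p = 0.00856), and TRO, the gene of trophinin, rose by 0.23 (adjusted p = 0.0142). Without p21 ON replicate 3 neither was called (adjusted p = 0.0518 and 0.0615 from limma), and without p21 ON replicate 1 TRO was not (0.103). RHOA had a log2 change of -0.17 (adjusted p = 0.0823) that passed the threshold when p21 OFF replicate 3 (0.0391) or replicate 2 of p21 ON (0.0467) was left out. BYSL (-0.06), PICALM, the gene of CALM (0.05), and ZNF224, a repressor that binds DEPDC1 (0.02), did not pass it.

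**Figure D3:**
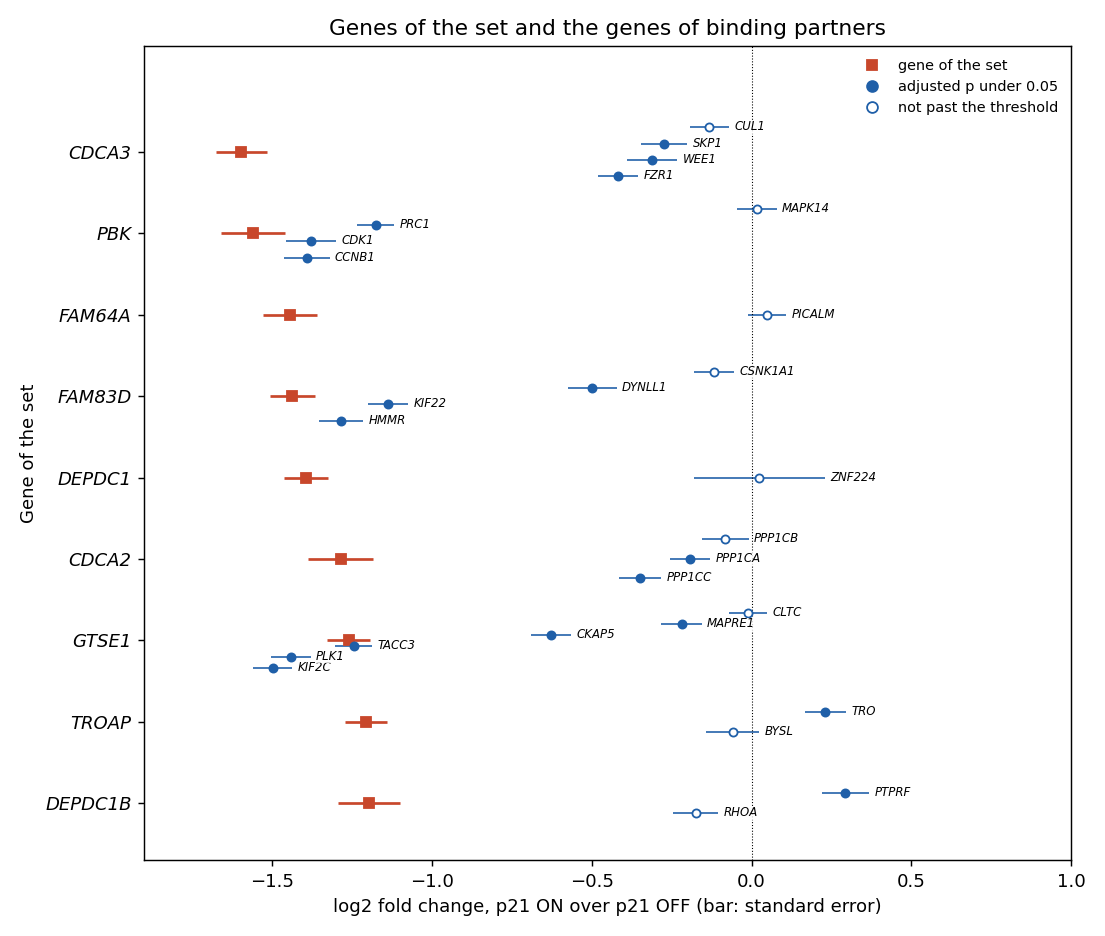
Log2 fold change (p21 ON over p21 OFF, bars are standard errors) of 9 of the 10 genes (red squares) and, in the same row, of the genes of their proteins' partners (blue circles, filled where the adjusted p-value is under 0.05); no partner was listed for C11orf82, and 1 partner that did not pass is not drawn. KIF2C, PLK1, CCNB1, CDK1, HMMR, TACC3, PRC1 and KIF22 lie left of -1 and the other partners drawn lie right of it.

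Genes that share a family or a symbol series with the 10 did not all move the same way. Of 15 such genes 9 were tested, and 3 were lower, 2 higher and 4 neither, with a median log2 change of -0.17. Over all genes 12.7% were lower and 10.5% higher, with a median of 0.0056. Of the 9, 2 (CDCA4 and CDCA8) are themselves in a G2/M list of the study, and both were lower. Of the other 7, 1 was lower, 2 were higher and 4 neither (median 0.25). In the CDCA series, which is named for cell cycle expression and not for descent, CDCA5 (sororin, a cohesin protector) went from 1346 ± 41.6 to 437 ± 14.6 normalized counts (n = 3 per group, SD), a log2 change of -1.62 (SE 0.07, limma adjusted p = 1.97e-11). CDCA8 (borealin, of the chromosomal passenger complex) fell by 1.54 and CDCA4 fell by 0.36 (adjusted p = 0.00512). CDCA7, which recruits the chromatin remodeler HELLS, rose from 661 ± 8.83 to 933 ± 40.7 (n = 3 per group, SD), a log2 change of 0.50 (limma adjusted p = 4.15e-05), and its paralog CDCA7L rose by 0.44 (adjusted p = 0.000481).

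In the FAM83 family, FAM83G with 101 ± 22.5 and 118 ± 6.61 normalized counts (n = 3 per group, SD) was the only member besides FAM83D with a mean of at least 10, and its log2 change of 0.25 did not pass the threshold (limma adjusted p = 0.231). It did pass without p21 OFF replicate 2 (0.0467). FAM83A, FAM83C, FAM83E, FAM83F and FAM83H had 1 to 7 reads each over the 6 libraries and FAM83B had 0. Of the further DEPDC genes, whose symbols mark a DEP domain, DEPDC5 had a log2 change of 0.26 (adjusted p = 0.0585), DEPDC7 one of -0.17 (adjusted p = 0.225) and DEPDC4, with 13.8 ± 1.13 and 6.95 ± 2.23 normalized counts (n = 3 per group, SD), one of -0.93 (adjusted p = 0.0639). Without p21 OFF replicate 3 DEPDC5 passed the threshold (0.0371).

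The nearest protein-coding genes on the chromosome were set out as a list of 20 neighbours. Of these 15 were tested and 2 were lower (13.3%), 4 higher and 9 neither, with a median log2 change of 0.05. Over all genes tested 12.7% were lower and 10.5% higher, so the share of lower neighbours was close to that of all genes. KCTD9 starts 800 bp from the start of CDCA2 and is read in the other direction. It belongs to the low-stringency G2/M genes and had 189.6 ± 13.04 and 179.7 ± 16.6 normalized counts (n = 3 per group, SD), a log2 change of -0.08 (SE 0.11, limma adjusted p = 0.628). USP5, a deubiquitinase gene that starts 864 bp from CDCA3 and is also read away from it, had 2963 ± 53.2 and 2559 ± 20.7 normalized counts (n = 3 per group, SD) and a log2 change of -0.21 (adjusted p = 0.0120), which was not called without p21 ON replicate 1 (0.0532). PRCP, whose start lies 1306 bp from that of C11orf82 on the opposite strand, had a log2 change of -0.12 (limma adjusted p = 0.185).

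ESCO2 was the neighbour that fell as far as the 10 genes. It encodes an acetyltransferase that locks cohesin in S phase, and its 3′ end overlaps the gene body of PBK, though no annotated exons overlap. It went from 270.3 ± 8.45 to 107 ± 10.1 normalized counts (n = 3 per group, SD), a log2 change of -1.34 (SE 0.11, limma adjusted p = 3.28e-08). SCARA5, on the other side of PBK, had 51.9 ± 10.9 and 48.6 ± 13.1 (n = 3 per group, SD) and a log2 change of -0.11 (limma adjusted p = 0.742). The neighbours that rose were ELOVL7 near DEPDC1B by 0.76 (adjusted p = 0.000336), C1QL4 near TROAP by 0.74 (adjusted p = 0.00740), LRRC7 beyond DEPDC1 by 0.73 (adjusted p = 0.0289) and PITPNM3 near FAM64A by 0.33 (adjusted p = 0.0422), all from limma. LRRC7, with 27.6 ± 4.73 and 47.3 ± 13.004 normalized counts (n = 3 per group, SD), is 1070701 bp away from DEPDC1. Without p21 ON replicate 1, C1QL4, LRRC7 and PITPNM3 were not called (adjusted p = 0.0526, 0.152 and 0.0847 from limma). LRRC7 was also lost when p21 OFF replicate 1 (0.0596) or replicate 2 of p21 ON (0.109) was left out, and PITPNM3 without p21 OFF replicate 1 (0.0802), p21 OFF replicate 3 (0.0726) or p21 ON replicate 3 (0.190).

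**Figure D4:**
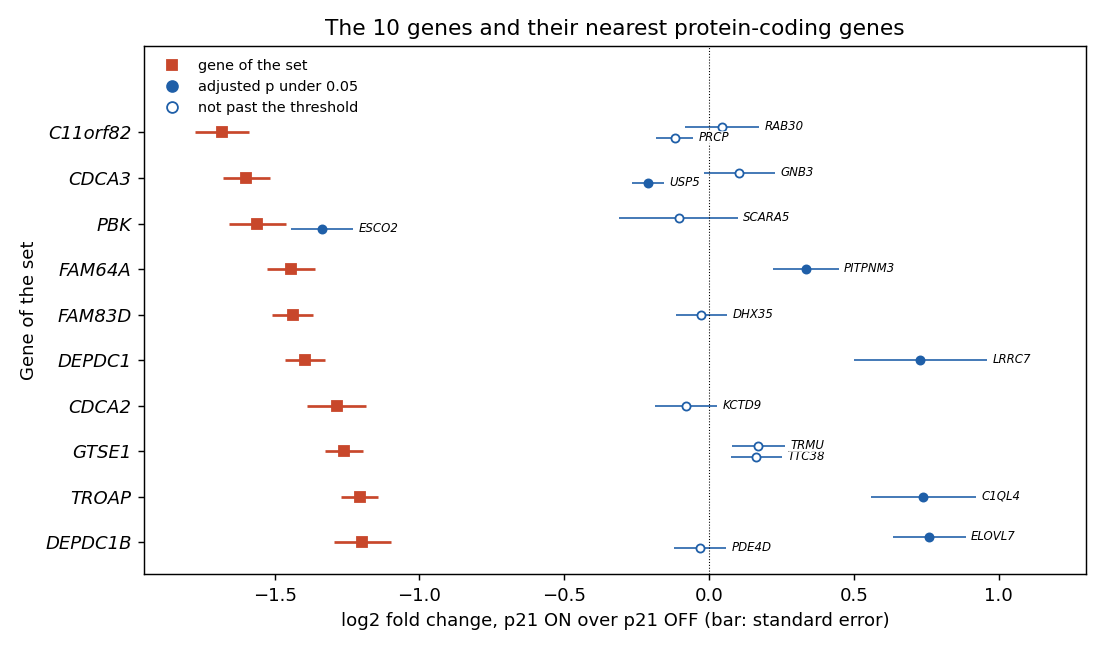
Log2 fold change (p21 ON over p21 OFF, bars are standard errors) of the 10 genes (red squares) and of their nearest protein-coding genes with a mean of at least 10 normalized counts (blue circles, filled where the adjusted p-value is under 0.05). ESCO2 at -1.34 lies beside PBK and the other 14 neighbours lie right of -0.25.

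Of the 13 genes of the DREAM and MMB-FOXM1 complexes, 5 were lower and none was higher at that threshold (limma), with a median log2 change of -0.24, beside 12.7% of all genes lower, 10.5% higher and a median of 0.0056. Of the 13, 3 are themselves in a G2/M list of the study (E2F5, LIN9 and FOXM1), and 2 of these were lower (median -1.09). Of the other 10, 3 were lower and 0 higher (median -0.20). The activators FOXM1 and MYBL2 (B-MYB) had log2 changes of -1.23 and -0.999 and the MuvB subunits LIN9 and LIN54 changes of -1.09 and -0.57. RBL2, the gene of p130, fell by 0.33 (adjusted p = 0.00148), while RBL1, the gene of p107, had a log2 change of -0.22 (adjusted p = 0.116). E2F4, the repressor E2F of DREAM, had one of -0.18 (adjusted p = 0.0617) that passed the threshold without p21 OFF replicate 3 (0.0235). E2F5 had a log2 change of -0.34 (limma adjusted p = 0.0535) that passed it with TMM scaling (0.0476).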

How the data were processed

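Poly(A) RNA of SaOS-2 cells was measured in 6 libraries, 3 per group. The authors used a stranded kit, STAR for alignment (hg19), HTSeq for gene counts and DESeq2 for normalization, with versions not given in the sources used here. The deposited table holds a signal per gene and library, the normalized count. Whole reads were recovered for 100% of the values of each library (tolerance 0.01), giving 12795490 to 21975045 reads per library. Groups came from the sample titles, which do not say whether libraries came from separate cultures, so p-values measure the spread between these libraries.

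The table holds normalized values, so limma 3.58.1 (R 4.3.3; lmFit, eBayes with a trend) was run on log2(normalized count + 1) for 13255 genes whose mean reached 10, without covariates, with Benjamini-Hochberg adjustment over all of them and a threshold of 0.05. All 10 genes passed this filter. Alternatives were edgeR 4.0.16 and DESeq2 1.42.0 on recovered reads, TMM or library-size scaling, pseudocounts of 0.1 and 10, other filters, an adjusted p-value under 0.01, a replicate block and leaving out each library. The test was also run on simulated counts with the same dispersion for every gene and larger log2 changes than many reported here. That run cannot show how well small changes are called.

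The genes, lists and tests were chosen with earlier results of these data known. Partner, family, complex and neighbour lists were written from textbook knowledge and from GENCODE 44 on GRCh37, the build of hg19, to which 21030 table rows were matched, 2115 by an older symbol. The values of 1 partner gene, counted in the list, are not reported here. All 10 genes are named. Of the lists, genes past the threshold and the remaining partners are named. Neighbours that did not pass are named only in part, and those below the filter are not named. The tested family genes, RBL1, E2F4 and E2F5 were added after their values were seen. The 5 genes of nearest profile are also named. Promoters are from RefSeq (GRCh38.p14), the first entry of each symbol.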

Additional observations from a re-analysis of the deposited data

How the results depend on the processing

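Over the 15 alternatives that give a value, each of the 10 genes kept a negative log2 fold change, from -1.75 (C11orf82 without p21 ON replicate 3) to -1.15 (DEPDC1B without p21 OFF replicate 1), and with each library left out their median stayed between -1.43 and -1.37. The causes of the changes given next were not tested. Without a filter on low values, 23228 genes were tested and 254 were called higher and 503 lower, with 1 neighbour and 0 partners higher and 11 partners lower. Under it the calls of DYNLL1 (adjusted p = 0.0903), WEE1 (0.122), PPP1CC (0.0806), SKP1 (0.216), PPP1CA (0.167), MAPRE1 (0.141), PTPRF (0.154), TRO (0.102), CDCA4 (0.108), RBL2 (0.0509), C1QL4 (0.178), LRRC7 (0.264) and PITPNM3 (0.177) were lost, and CUL1 was called (0.0339). An adjusted p-value under 0.01 left 616 genes higher and 882 lower, 2 neighbours higher and 1 lower, and 1 partner higher. On recovered reads edgeR called 1401 genes higher and 1647 lower, and DESeq2 called 1118 and 1422, with 2 neighbours higher. With each library left out, 695 to 1486 genes were called higher and 887 to 1660 lower, 1 to 4 neighbours higher and 1 to 2 lower, and 0 to 2 partners higher and 13 to 17 lower. The lowest counts of all genes came without p21 ON replicate 1 (695 and 887), and those without p21 ON replicate 3 were 739 and 1077.

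Scaling by library size alone called 2034 genes higher and 1194 lower, against 1393 and 1681, and ended the calls of MAPRE1 (adjusted p = 0.0509) and PPP1CA (adjusted p = 0.0844), while DEPDC5 passed the threshold (adjusted p = 0.0287). With the replicate block, 1407 genes were higher and 1513 lower, and of the list genes named, PPP1CA alone changed its call (adjusted p = 0.0618). The deviations of same-numbered libraries from their group means had correlations of -0.057, -0.025 and -0.048, so no pairing by number was seen. With 3 libraries per group this cannot show that the libraries were unpaired. The lowest depth behind a value of the 10 genes was 100 reads, which limits the precision in CDCA2 most.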
